A study of Mus musculus with 12 samples.

Results

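Somatostatin (Sst) and 4 of its receptor genes (Sstr1, Sstr2, Sstr3 and Sstr4) were followed in mouse ventral hippocampus after strong stimulation of the slice, with or without stimulation of the amygdala. They were taken by family name and are 5 of 55471 gene IDs in the count table. The family was chosen by the measured levels of Sstr3, which were higher in the stimulated groups than in Control, so its values against Control are given as a description with no test. The fifth receptor gene, Sstr5, and the related ligand gene cortistatin (Cort) are not among the 5 and are given beside them. The mice were male, wild-type, of the C57BL/6J strain and 5 to 7 weeks old, and poly(A) RNA from a 1 mm2 piece of ventral CA1 holding the electrodes was sequenced 30 min after stimulation. There were 4 groups of 3 samples. STET_S200 and STET_S100 slices received trains to the basolateral amygdala, labelled as 200 Hz and 100 Hz, together with strong tetanization of the CA1 inputs. STET slices received strong tetanization alone, in 3 trains of 100 pulses at 100 Hz, and Control slices had electrodes in place and basal stimulation only. The labels of STET_S200 name a rate of 200 Hz but add a bracket with 100 Hz, and the rate used is therefore uncertain. Each sample pooled 6 slices, and each mouse gave 1 slice to each of the 4 groups, so the groups share mice. The labels do not say that equal sample numbers mark the same mice.

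Somatostatin is a peptide made in the hippocampus mainly by inhibitory interneurons that target the dendrites of pyramidal cells. It is cut from a longer precursor into a short and a long active form, and it acts on a family of receptors that couple to inhibitory Gi/o proteins, lower cyclic AMP and open inwardly rectifying potassium channels. The receptors differ in their place in the neuron: the Sstr3 product is carried into the primary cilium, a single antenna-like projection of the cell body, and is widely used as a marker of neuronal cilia. Cortistatin is a close relative of somatostatin that binds the same receptors. The Sst gene is a textbook target of the cyclic AMP pathway, through a cyclic AMP response element (CRE) in its promoter.

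The promoters of Sst, Sstr2 and Sstr3 are shown because they differ in this element. They cover 250 bases before to 50 bases after the start site, are written 5′ to 3′ on the strand of the gene, and are from RefSeq for GRCm38.p6. That table gave 6 promoters for 5 of the 7 genes of the system, with 2 start sites for Sstr3, and none was found there for Sstr1 or Sstr5. Capitals mark the full CRE (TGACGTCA) in Sst and Sstr2, and in Sstr3 the shorter core TGACG, which is part of the full element on both strands. Sst lies at chr16:23890795-23891094 on the minus strand, Sstr2 at chr11:113619077-113619376 on the plus strand, and the first Sstr3 start site at chr15:78544296-78544595 on the minus strand.
Sst promoter: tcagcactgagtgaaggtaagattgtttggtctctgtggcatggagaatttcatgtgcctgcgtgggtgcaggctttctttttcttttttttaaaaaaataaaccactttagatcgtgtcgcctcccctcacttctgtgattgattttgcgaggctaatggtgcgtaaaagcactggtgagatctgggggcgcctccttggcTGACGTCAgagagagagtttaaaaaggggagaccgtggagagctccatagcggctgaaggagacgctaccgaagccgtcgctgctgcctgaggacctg
Sstr2 promoter: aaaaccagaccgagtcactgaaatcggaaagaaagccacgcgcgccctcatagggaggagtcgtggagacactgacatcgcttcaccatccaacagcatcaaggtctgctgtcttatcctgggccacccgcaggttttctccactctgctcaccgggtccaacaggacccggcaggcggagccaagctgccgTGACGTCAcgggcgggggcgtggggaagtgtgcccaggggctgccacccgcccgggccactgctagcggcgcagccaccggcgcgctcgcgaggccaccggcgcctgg
Sstr3 promoter, start site 1: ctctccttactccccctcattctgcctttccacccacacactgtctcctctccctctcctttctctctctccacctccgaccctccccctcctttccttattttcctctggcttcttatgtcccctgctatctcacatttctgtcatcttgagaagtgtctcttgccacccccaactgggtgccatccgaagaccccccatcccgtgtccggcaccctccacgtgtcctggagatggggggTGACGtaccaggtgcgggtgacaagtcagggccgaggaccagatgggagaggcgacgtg
The full CRE begins at -48 from the start site in Sst and at -58 in Sstr2. It was found in 1.79% of 32851 promoter windows of this length, searched on both strands. The Sstr3 window holds no full CRE. It holds the shorter core at -9, a sequence found in 20.8% of windows, and CACGTG at -31, found in 7.15%. The Sstr2 window also holds the EGR motif GCGNGGGCG at -47, found in 5.55% of windows. The AP-1 motif TGANTCA, found in 7.81% of windows, was in none of the 6 promoters. The second Sstr3 window, at chr15:78541357-78541656 on the minus strand, and the Sstr4 window, at chr2:148395127-148395426 on the plus strand, held none of these motifs. The Cort window held the shorter core at -18. These matches are letters only, and binding was not measured.

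A pair of coding stretches shows what sets the peptide and the ciliary receptor apart. They were read from transcripts of the GENCODE M21 annotation. The Sst stretch covers codons 89 to 116 of 116, which encode the 28-residue form, with the 14 codons of the short form in capitals. The Sstr3 stretch covers codons 239 to 259 of 428, in the third intracellular loop, and the capitals mark codons 243 to 247 and 251 to 255. These match the ciliary-targeting motif of receptors such as Sstr3 and Htr6.
Sst, codons 89 to 116: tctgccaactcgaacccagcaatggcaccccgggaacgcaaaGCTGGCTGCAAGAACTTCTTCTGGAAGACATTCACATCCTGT
Sstr3, codons 239 to 259: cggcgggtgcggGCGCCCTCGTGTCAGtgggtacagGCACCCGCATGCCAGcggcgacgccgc
The coding sequences of Sstr1, Sstr2, Sstr4 and Sstr5 had 0 matches to that motif.

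The 12 libraries held 36.3 to 52.8 M counted reads each. Markers of tissue outside CA1 varied between libraries. Summed over 9 choroid plexus markers, levels were 10.5 to 55.6 CPM (reads per 1 M counted reads) in STET_S200, 25.2 to 3103 CPM in STET_S100, 286 to 2468 CPM in STET and 216 to 1325 CPM in Control. Fabp4, a gene of fat and vessel cells, was above 1 CPM in 5 libraries, at least 1 in every group. CA1 pyramidal markers summed to 6006 to 6768 CPM over all libraries. Of 13 activity-regulated transcription genes, 11, 12 and 11 had positive estimates against Control in STET_S200, STET_S100 and STET, with medians of 0.31, 0.44 and 0.44 on the log2 scale, and none passed the test. In these bulk samples, fewer cells of a type and less RNA per cell cannot be told apart.

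Sst was among the most abundant transcripts of the region, and its receptors were expressed at moderate levels. Per kilobase of exon, Sst averaged 280 ± 26.2 CPM over the 12 libraries (SD), which is above 99.7% of the 19492 genes tested. On the same scale Sstr4 averaged 14.6 ± 1.01, Sstr1 12.5 ± 1.08, Sstr3 7.63 ± 0.865 and Sstr2 5.79 ± 0.713 CPM per kb. Sst exceeded Sstr4 in 12 of 12 libraries, by 15.2 to 22.8 times, and Sstr1 exceeded Sstr3 in 12 of 12, by 1.34 to 2.12 times. Sstr4 stood above Sstr1 in 10 of 12 libraries and Sstr3 above Sstr2 in 11 of 12, with ranges that overlapped, so neither pair of neighbours was separated in every library. Cort averaged 6.64 ± 0.847 CPM per kb and Sstr5 0.0836 ± 0.0256 CPM per kb. Exon lengths ran from 677 bases for Cort to 4320 bases for Sstr3 in GENCODE M21, so this order depends on the gene models. In CPM, without division by length, Sstr3 was the highest of the receptor genes in every group mean.

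Sstr3 (ENSMUSG00000044933) gave 38.4, 37.8 and 34.3 CPM in STET_S200, 34.7, 36.6 and 34.6 CPM in STET_S100, 31.7, 31.8 and 30.7 CPM in STET, and 28.9, 30.3 and 26.0 CPM in Control. Every library that received the amygdala train was above every STET library, and every STET library was above every Control library. STET and Control nearly met, at 30.7 CPM in STET 3 (1413 reads) and 30.3 CPM in Control 2 (1112 reads). The means were 36.8 ± 2.21 CPM in STET_S200, 35.3 ± 1.15 CPM in STET_S100, 31.4 ± 0.629 CPM in STET and 28.4 ± 2.21 CPM in Control, each the mean and SD of 3 libraries. Against Control, the fitted log2 difference was 0.37 ± 0.06 (SE) in STET_S200, which is 1.30-fold, 0.31 ± 0.06 in STET_S100, 1.24-fold, and 0.14 ± 0.06 in STET, 1.10-fold. These comparisons share the Control libraries, and they are the values that picked the gene. The same 3 tiers without overlap were seen in 3 of the 19492 genes tested, which is 0.0154%: Sstr3, Cdyl2 and 1700101I11Rik. The reverse order was seen in 3 genes as well, 0.0154%. Part of this order is what picked Sstr3, so the count is a description and does not measure how unusual the gene is. Sstr3 had 951 to 1742 reads in a library.

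**Figure D1:**
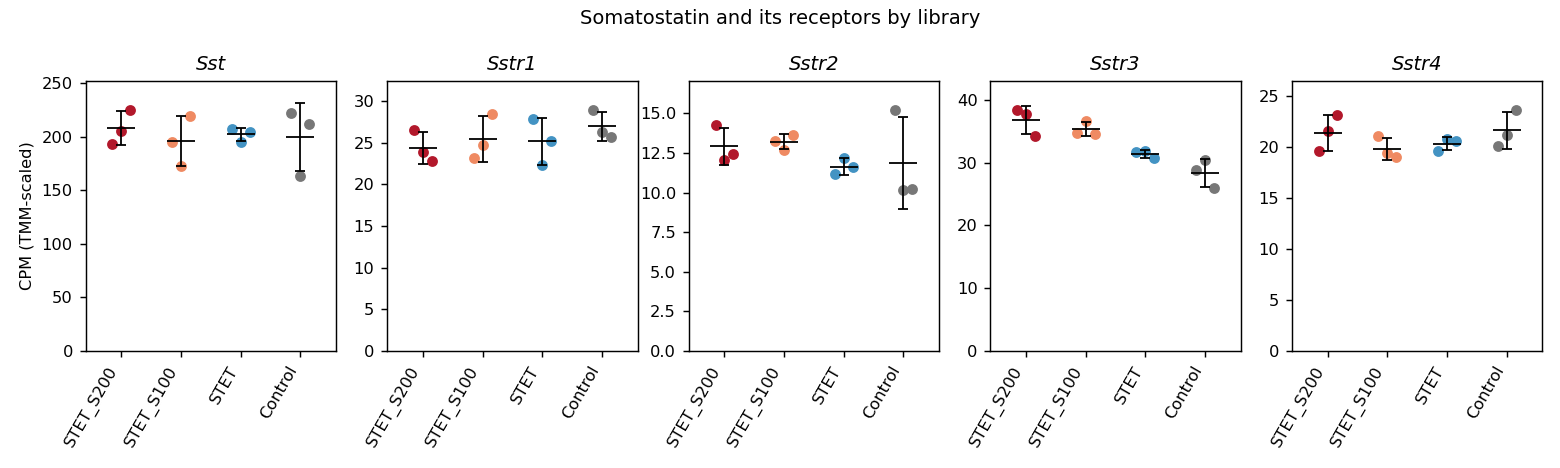
CPM of Sst and its receptor genes in each library, with 1 panel per gene, groups along the horizontal axis from STET_S200 at the left to Control at the right, points for libraries and bars for the mean and SD of 3. The Sstr3 points step down from 34.3 to 38.4 CPM in STET_S200 to 26.0 to 30.3 CPM in Control. Those of Sst, Sstr1 and Sstr4 overlap between the groups. Those of Sstr2 overlap too, except that all STET_S100 points lie above the STET points.

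Read as a share of all reads on the 5 receptor genes, a measure that needs no scaling between libraries, Sstr3 took 38.4% ± 1.38 in STET_S200, 37.6% ± 1.56 in STET_S100, 35.3% ± 0.928 in STET and 31.9% ± 2.23 in Control (SD, n = 3 each). By library, the share ran from 36.9 to 39.5% in STET_S200, from 36 to 39.1% in STET_S100, from 34.7 to 36.4% in STET and from 30.3 to 34.4% in Control. The STET_S100 and STET ranges overlapped on this measure, and all 9 stimulated libraries were above the 3 Control libraries. Sstr1 took 25.4% ± 1.21 in STET_S200, 27.0% ± 2.39 in STET_S100, 28.3% ± 2.60 in STET and 30.3% ± 0.673 in Control. Sstr4 took 22.4% ± 2.53, 21.1% ± 1.52, 22.9% ± 1.13 and 24.4% ± 3.02 in STET_S200, STET_S100, STET and Control, and Sstr2 13.5%, 14.1%, 13.1% and 13.3% in that order. The shares sum to 100%, so a higher Sstr3 share lowers the others by construction, and the shares use the same reads that picked the gene. They are a description with no test.

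**Figure D2:**
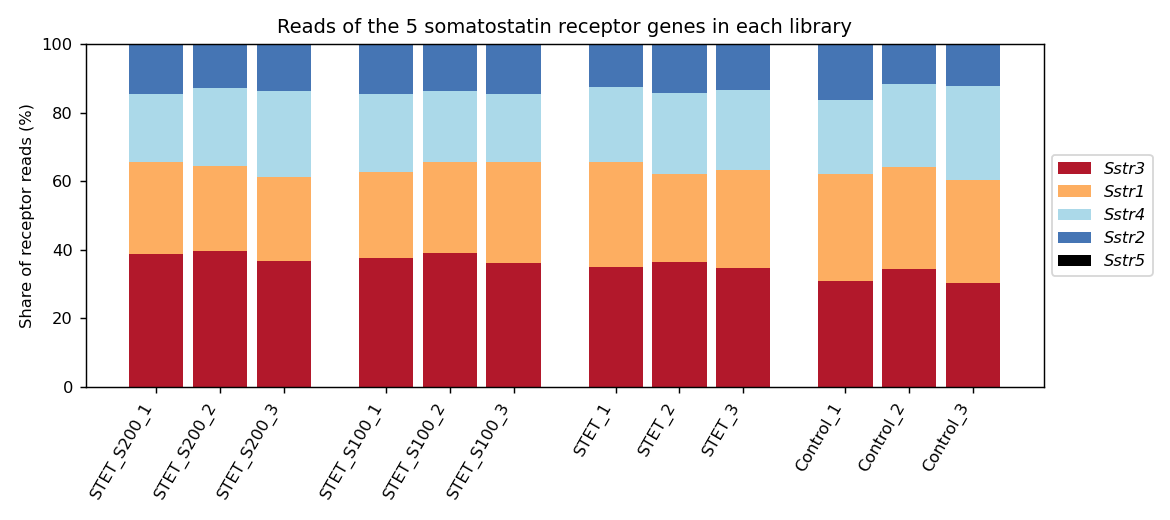
Share of the reads of the 5 somatostatin receptor genes taken by each gene, in percent, for every library, as stacked bars with the STET_S200 and STET_S100 libraries at the left and Control at the right; Sstr5, under 1% of reads, is too thin to see. Sstr3 takes 36 to 39.5% in the STET_S200 and STET_S100 libraries, 34.7 to 36.4% in STET and 30.3 to 34.4% in Control.

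The amygdala groups can also be set against STET. The amygdala libraries are among those whose high values picked Sstr3, so this comparison is not independent of that choice. The mean of STET_S200 and STET_S100 was above STET by 0.20 ± 0.05 on the log2 scale (SE), which is 1.15-fold, with all 6 amygdala libraries above all 3 STET libraries. Sstr3 did not pass the threshold of 0.05 (edgeR quasi-likelihood test, Benjamini-Hochberg over 19492 genes, adjusted p = 0.838). In this comparison 0% of the genes tested passed that threshold, 3.80% had an unadjusted p under 0.05, and 1.26% had all libraries of the amygdala groups above all STET libraries. Taken singly, STET_S200 stood above STET by 0.23 ± 0.06 (edgeR adjusted p = 0.938) and STET_S100 above STET by 0.17 ± 0.06 (edgeR adjusted p = 1.00). Both sets of libraries lay wholly above STET, as did 6.22% of genes for STET_S200 and 4.73% for STET_S100. STET_S200 and STET_S100 overlapped, with a difference of 0.06 ± 0.06 (95% interval -0.07 to 0.19; edgeR adjusted p = 0.984).

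Sst itself (ENSMUSG00000004366), the ligand, gave 194, 205 and 225 CPM in STET_S200, 195, 173 and 220 CPM in STET_S100, 207, 196 and 204 CPM in STET, and 223, 163 and 213 CPM in Control. All 4 groups overlapped, and the lowest and the second highest library were both Control. The log2 difference from Control was 0.06 ± 0.12 in STET_S200 (95% interval -0.22 to 0.33; edgeR adjusted p = 0.966), -0.03 ± 0.12 in STET_S100 (interval -0.30 to 0.25; adjusted p = 0.987) and 0.02 ± 0.12 in STET (interval -0.26 to 0.29; adjusted p = 1.00). Without the Control 2 library these were -0.07, -0.15 and -0.10, and without Control 1 0.15, 0.06 and 0.11. The STET_S200 interval holds Sst levels of 0.861 to 1.26 times Control, so a change within these bounds remains compatible with these data. The interval is not a limit of detection, and larger changes could also fail the adjusted test. The mean of both amygdala groups differed from STET by -0.00 ± 0.11 (interval -0.24 to 0.23; adjusted p = 1.00). Within groups, Sst varied more than genes of its abundance, with an SD of 0.159 on the log2 scale against a median of 0.053 for 1017 genes of similar level. Cort (ENSMUSG00000028971) ranged from 3.55 to 5.41 CPM over the 12 libraries, and its log2 difference from Control was -0.01, 0.08 and -0.09 in STET_S200, STET_S100 and STET, each with an SE of 0.15.

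Sstr1 (ENSMUSG00000035431), a receptor found on the neuronal membrane and axons, gave 26.5, 23.9 and 22.8 CPM in STET_S200, 23.1, 24.7 and 28.5 CPM in STET_S100, 27.9, 22.3 and 25.3 CPM in STET, and 28.9, 26.3 and 25.7 CPM in Control. The groups overlapped, with means of 24.4 ± 1.91, 25.4 ± 2.74, 25.2 ± 2.77 and 27.0 ± 1.72 CPM in STET_S200, STET_S100, STET and Control. The log2 difference from Control was -0.15 ± 0.09 in STET_S200 (95% interval -0.34 to 0.05; edgeR adjusted p = 0.846), -0.09 ± 0.09 in STET_S100 and -0.10 ± 0.09 in STET. All 3 intervals held 0. The estimates varied in size with single libraries and stayed negative in all 25 alternatives. The STET_S200 value was -0.09 without Control 1 and -0.10 without STET_S200 3. The STET_S100 value was -0.03 without Control 1, -0.02 without STET_S100 1 and -0.18 without STET_S100 3. The STET value was -0.05 without Control 1, -0.02 without STET 2 and -0.18 without STET 1. With a choroid plexus score in the fit the STET_S200 value was -0.33. The scores of STET_S200 and Control do not overlap, so that fit cannot tell group and score apart. Among libraries with Fabp4 at or under 1 CPM the STET_S200 value was -0.06, which rests on STET_S200 1 alone of its group.

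Sstr4 (ENSMUSG00000037014), a receptor enriched in hippocampal pyramidal cells, gave 19.6, 21.6 and 23.1 CPM in STET_S200, 21.1, 19.5 and 19.0 CPM in STET_S100, 19.7, 20.8 and 20.6 CPM in STET, and 20.1, 21.2 and 23.7 CPM in Control. The groups again overlapped. Its log2 difference from Control was -0.01 ± 0.07 in STET_S200 (interval -0.17 to 0.14; edgeR adjusted p = 0.991), -0.12 ± 0.07 in STET_S100 (interval -0.28 to 0.03; adjusted p = 0.902) and -0.09 ± 0.07 in STET (interval -0.24 to 0.07; adjusted p = 1.00).

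Sstr2 (ENSMUSG00000047904), the receptor with the most widely used drug ligands, gave 14.2, 12.1 and 12.5 CPM in STET_S200, 13.3, 12.7 and 13.7 CPM in STET_S100, 11.2, 12.2 and 11.6 CPM in STET, and 15.2, 10.2 and 10.3 CPM in Control. The Control group held both the highest and the lowest library. The log2 difference from Control was 0.11 ± 0.13 in STET_S200 (interval -0.16 to 0.39; edgeR adjusted p = 0.922), 0.14 ± 0.13 in STET_S100 (interval -0.13 to 0.42; adjusted p = 0.923) and -0.04 ± 0.13 in STET. Without the Control 1 library they were 0.34, 0.37 and 0.19, so the sign of the STET value turned. Against STET, all STET_S100 libraries were higher, as for 4.73% of all genes tested, by 0.18 ± 0.13 (interval -0.09 to 0.45; adjusted p = 1.00). The mean of both amygdala groups differed from STET by 0.17 ± 0.11 (interval -0.07 to 0.40; adjusted p = 1.00). Sstr2 overlaps Slc39a11 on the opposite strand, and reads of the pair may be mixed, because no source used here gives the strand setting of the counting. Sstr5 (ENSMUSG00000050824) had 5 to 14 reads in a library, or 0.113 to 0.355 CPM. Its log2 differences of 0.76 ± 0.44 in STET_S200, 0.65 ± 0.44 in STET_S100 and 0.74 ± 0.43 in STET had intervals that held 0, and no change in Sstr5 was detectable at this depth.

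By the edgeR quasi-likelihood test, none of Sst, Sstr1, Sstr2 and Sstr4 passed an adjusted p of 0.05 in any of the 7 comparisons. Neither did Sstr3 in the 4 comparisons that do not involve Control. The amygdala libraries are among those that picked Sstr3, so its tests in those 4 are not independent of that choice. The background is the same: 0% of 19492 genes passed in each comparison. An unadjusted p under 0.05 was reached by 1154 genes (5.92%) in STET_S200, 1006 (5.16%) in STET_S100 and 683 (3.50%) in STET against Control, by 4.56% in STET_S200 and 3.16% in STET_S100 against STET, and by 5.20% in STET_S200 against STET_S100. None of Sst, Sstr1, Sstr2 and Sstr4 reached it in any comparison. Libraries wholly above Control were seen for 5.73% of genes in STET_S200, 5.19% in STET_S100 and 4.69% in STET, and of the 5 genes only for Sstr3. With DESeq2 on the same counts, 4 genes passed in STET_S200, 3 in STET_S100 and 1 in STET against Control, and none of them was Sst, Sstr1, Sstr2 or Sstr4. No call of Sstr3 against Control is read from any tool.

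**Figure D3:**
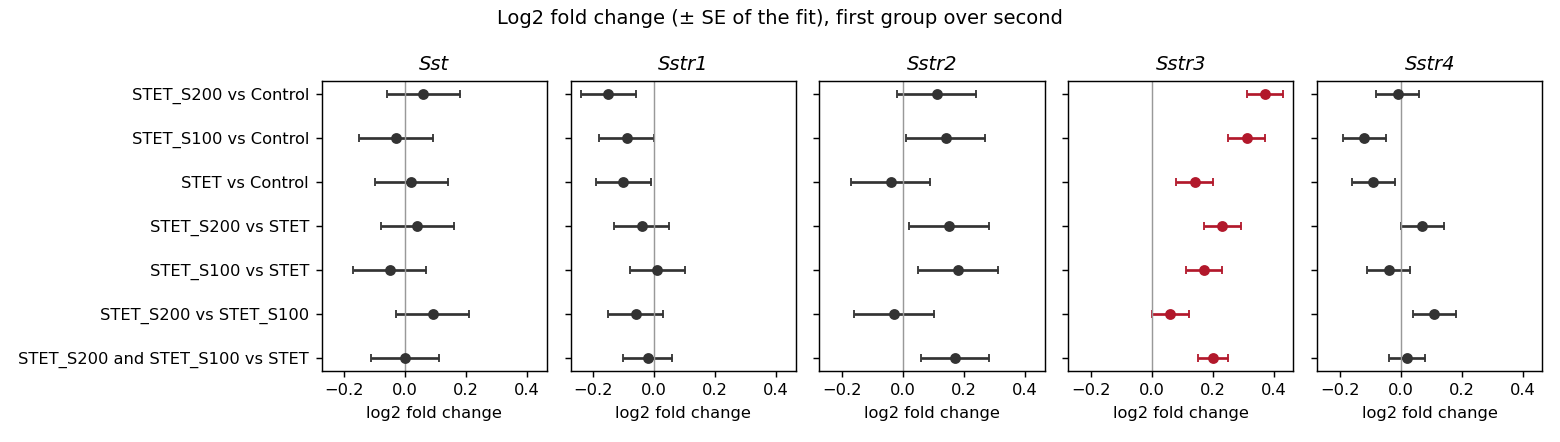
Fitted log2 differences of Sst and Sstr1 to Sstr4, the first named group over the second, with 1 panel per gene, a line for each of the 7 comparisons, points for the estimate and bars for 1 SE. Sstr3 lies at 0.37, 0.31 and 0.14 against Control in STET_S200, STET_S100 and STET, and Sst lies at 0.06, -0.03 and 0.02.

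Across the 12 libraries the genes showed no pairwise relation that passed adjustment over the 10 pairs (two-sided permutation test, 100000 resamples). The resampling shuffled libraries across groups, although libraries of a group share a treatment. Pairs with Sstr3 were among the 10. They hold the values that picked the gene, so they are given as a description without p-values. The strongest was Sstr2 with Sstr4, with a Pearson r of -0.51 (p = 0.0869, adjusted p = 0.44), a Spearman rho of -0.55 (p = 0.0714, adjusted p = 0.444) and an r of -0.56 without Control 1 and Control 2. Sstr1 with Sstr4 gave r = -0.51 (p = 0.0901, adjusted p = 0.44) and rho = -0.52 (p = 0.0903, adjusted p = 0.444). Ligand and ciliary receptor, Sst and Sstr3, gave r = -0.18 and rho = -0.32. After removal of each group's mean, given as a description, r was -0.78 for Sstr1 and Sstr4, -0.72 for Sstr3 and Sstr4, and -0.71 for Sst and Sstr3. Sstr2 and Sstr3 gave r = 0.46 and rho = 0.46, and r was 0.83 without Control 1 and Control 2, so the value over all libraries depends on those 2.

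The other genes of the pathway are described by counts of positive estimates and by the median log2 difference from Control, beside a median of 0.00 over all genes in each comparison. None of their genes passed an adjusted p of 0.05. Of 15 Gi/o protein genes, 4 were positive in STET_S200, 4 in STET_S100 and 6 in STET, with medians of -0.00, -0.05 and -0.00. Gnao1, the most abundant of them in neurons, differed by -0.04 ± 0.04, -0.08 ± 0.04 and -0.06 ± 0.04 in STET_S200, STET_S100 and STET. Gnb1 and Gng2, which encode beta and gamma subunits, lay between -0.05 and 0.07. Of 9 adenylyl cyclase genes, 4, 4 and 2 were positive in those groups, with medians of -0.00, -0.04 and -0.02. Adcy1, a calcium-stimulated cyclase, differed by -0.12 ± 0.07, -0.11 ± 0.07 and -0.09 ± 0.07, and Adcy5 and Adcy2 lay between -0.04 and 0.06.

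Of 9 effector channel genes, 5, 4 and 2 were positive in STET_S200, STET_S100 and STET, with medians of 0.01, -0.00 and -0.03. Kcnj3, a subunit of the G-protein-gated potassium channel, differed from Control by 0.05 ± 0.03, 0.03 ± 0.03 and 0.02 ± 0.03. Kcnq3, a voltage-gated potassium channel subunit, differed by -0.03 ± 0.04, -0.13 ± 0.04 and -0.08 ± 0.04 (edgeR adjusted p = 0.902 in STET_S100). The lowest point of this list, Kcnj5, which was singled out after its value was seen, averaged 0.332 CPM in STET_S200 and differed there by -0.90 ± 0.40 (edgeR adjusted p = 0.828). Of 13 genes of receptor desensitisation, 7, 6 and 4 were positive, with medians of 0.00, -0.01 and -0.04. Rgs4, which speeds the shut-off of G proteins, differed by 0.10 ± 0.08, 0.12 ± 0.08 and 0.15 ± 0.08, while Arrb1 and Grk3 lay between -0.05 and -0.02.

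Of 7 genes that process the precursor, 3, 4 and 2 were positive, with medians of -0.02, 0.00 and -0.03. Cpe, which trims peptide ends and was the most abundant of them, differed by 0.04 ± 0.04, 0.00 ± 0.04 and 0.02 ± 0.04 in STET_S200, STET_S100 and STET. Pcsk2, which cuts precursors, differed by -0.02 ± 0.05, -0.05 ± 0.05 and -0.08 ± 0.05, and Pcsk1n, which encodes a convertase inhibitor, by -0.06 ± 0.04, 0.02 ± 0.04 and -0.03 ± 0.04. Of 16 other neuropeptide precursor genes tested, 7, 6 and 5 were positive, with medians of -0.02, -0.03 and -0.03. Of 11 tested receptor genes of other inhibitory peptides and lipids, 9 were positive in STET_S200, 4 in STET_S100 and 4 in STET, with medians of 0.06, -0.03 and -0.00. Cnr1, the cannabinoid receptor, was the most abundant of them and differed by 0.14 ± 0.06 in STET_S200 (edgeR adjusted p = 0.828), 0.07 ± 0.06 in STET_S100 and -0.00 ± 0.06 in STET. Oprl1 and Npy1r lay between -0.10 and 0.07.

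Other genes of the primary cilium had list medians close to 0. Of 13 tested genes of ciliary receptors and signalling, without Sstr3, 7 were positive in STET_S200, 6 in STET_S100 and 5 in STET, with medians of 0.01, -0.03 and -0.00. Against STET, the mean of both amygdala groups was positive for 9 of the 13, with a median of 0.03. Gpr161, a ciliary receptor that holds back Hedgehog signalling, differed from Control by 0.01 ± 0.07, -0.04 ± 0.07 and -0.03 ± 0.07 in STET_S200, STET_S100 and STET. Adcy3, the cyclase of neuronal cilia, differed by 0.09 ± 0.05, 0.01 ± 0.05 and -0.02 ± 0.05, and Ptch1, the Hedgehog receptor, by 0.06 ± 0.07, 0.04 ± 0.06 and 0.04 ± 0.06. Of 34 genes of ciliary transport, 13, 17 and 13 were positive, with medians of -0.03, 0.00 and -0.01. Kif3a, a motor of transport into the cilium, differed by 0.02 ± 0.04, -0.02 ± 0.04 and -0.03 ± 0.04, and Pcm1 and Ttbk2 lay between -0.06 and 0.03.

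The following 3 ciliary genes were chosen after their values were seen. Mchr1, the ciliary receptor of melanin-concentrating hormone, differed from Control by 0.10 ± 0.07 in STET_S200, -0.03 ± 0.07 in STET_S100 and -0.00 ± 0.07 in STET. Htr6, a ciliary serotonin receptor, averaged 5.40 CPM over the 12 libraries and differed by 0.16 ± 0.12, 0.30 ± 0.12 and 0.07 ± 0.12 (edgeR adjusted p = 0.902 in STET_S100). Arl13b, a ciliary GTPase used with Sstr3 as a marker of cilia, was lower where Sstr3 was higher, by -0.20 ± 0.07 in STET_S200, -0.18 ± 0.07 in STET_S100 and -0.04 ± 0.07 in STET, and did not pass the test (edgeR adjusted p = 0.786 in STET_S200 and 0.902 in STET_S100).

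**Figure D4:**
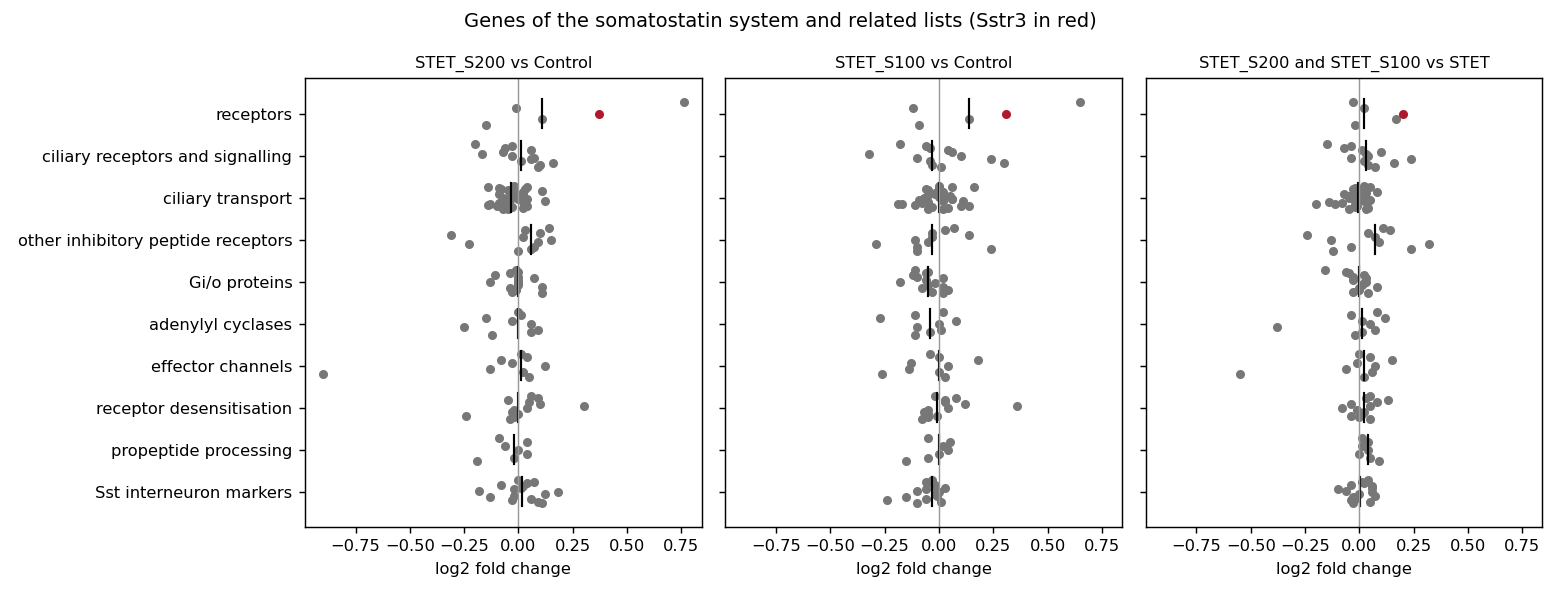
Log2 difference of each tested gene of 10 lists in STET_S200 against Control, STET_S100 against Control and both amygdala groups against STET, with a point per gene, a black line at the list's median and Sstr3 in red. Ciliary transport genes have medians of -0.03, 0.00 and -0.01 in the 3 panels, beside 0.37, 0.31 and 0.20 for Sstr3.

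None of the markers of the cells that make and receive somatostatin passed the test. Markers of Sst interneurons were positive for 9 of 16 genes in STET_S200, 3 in STET_S100 and 5 in STET against Control, with medians of 0.01, -0.03 and -0.01. Gad1, which makes GABA, differed by 0.01 ± 0.07, 0.03 ± 0.07 and -0.04 ± 0.07. Of 12 markers of other interneurons, 8, 6 and 4 were positive, with medians of 0.03, 0.00 and -0.03, and Cck, a peptide of a separate interneuron class, differed by 0.05 ± 0.05, 0.02 ± 0.05 and -0.04 ± 0.05. Of 12 CA1 pyramidal markers, 6, 2 and 5 were positive, with medians of 0.02, -0.05 and -0.01.

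Marker lists of other cells also had medians away from 0 in the amygdala groups. None of their genes passed the test. Of the microglia, choroid plexus, dentate and ependymal lists, the microglia list alone had medians of 1 sign in both amygdala groups. Medians against Control were also negative in STET_S200 and STET_S100 for astrocyte (-0.05 and -0.05), oligodendrocyte (-0.01 and -0.06) and endothelial markers (-0.09 and -0.03). For the mean of both amygdala groups against STET, all 9 astrocyte and all 9 oligodendrocyte markers were negative, as were 6 of 8 endothelial markers. In that comparison 8 of 10 CA2 and CA3 markers were positive (median 0.12), as were 9 of 12 markers of other interneurons (0.07). Sst interneuron markers were positive for 9 of 16 genes and CA1 pyramidal markers for 6 of 12, both with a median of 0.00. Against Control, CA2 and CA3 medians were -0.03 in STET_S200 and 0.08 in STET_S100. The part of these lists in the Sstr3 values was not tested beyond the terms given here. All 10 microglia markers had negative estimates against Control in STET_S200 and in STET_S100, with medians of -0.21 and -0.10, and their summed levels were 233 to 272 CPM in STET_S200, 250 to 288 CPM in STET_S100, 265 to 289 CPM in STET and 276 to 295 CPM in Control. All 9 choroid plexus markers had negative estimates in STET_S200 (median -5.10) and positive ones in STET_S100 (1.31) and STET (0.64). With a choroid plexus score in the fit, the Sstr3 differences from Control were 0.41, 0.31 and 0.14 in STET_S200, STET_S100 and STET. The score ran from -3.37 to -1.88 in STET_S200 and from -0.27 to 2.11 in Control. Without overlap, this fit cannot tell group and score apart for STET_S200. Among the 7 libraries with Fabp4 at or under 1 CPM they were 0.37, 0.27 and 0.10. STET_S200 kept only its library 1 there, which had the highest Sstr3 of the group, so 0.37 rests on 1 library. Dentate granule markers, 9 genes, summed to 113 to 244 CPM in STET_S200, 181 to 229 CPM in STET_S100, 178 to 226 CPM in STET and 132 to 225 CPM in Control. The libraries with the lowest sums, STET_S200 3 and Control 3, also had the lowest Sstr3 of their groups. With a dentate score in the fit, an alternative added after the data were seen, the Sstr3 differences were 0.40, 0.29 and 0.14. Of 11 tested motile cilia and ependymal markers, 4 were positive in STET_S200, 10 in STET_S100 and 3 in STET, with medians of -0.08, 0.33 and -0.10.

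Genes whose levels ran most like those of Sstr3 were found by the Pearson r of log2 CPM over the 12 libraries, among 13404 genes with a mean log2 CPM of at least 1. The 8 highest were Lrfn2 (r = 0.914), Prkaa1 (0.903), Cdyl2 (0.894), Kansl2 (0.894), Cxxc5 (0.892), Rtn4rl1 (0.878), Cdc40 (0.875) and Gpc1 (0.871). The 4 lowest were Arrdc3 (-0.857), Sspn (-0.835), Cdc42ep3 (-0.834) and Cul7 (-0.832). With each group's mean removed, r was 0.630 for Lrfn2, 0.381 for Cdyl2 and 0.908 for Prkaa1. Lrfn2, a synaptic adhesion molecule, averaged 36.1 ± 1.13 CPM in STET_S200, 34.8 ± 0.959 CPM in STET_S100, 33.5 ± 0.539 CPM in STET and 32.3 ± 0.878 CPM in Control. Prkaa1, a catalytic subunit of AMP-activated kinase, averaged 44.1 ± 2.27, 42.7 ± 0.154, 40.8 ± 0.271 and 39.2 ± 3.59 CPM in the same groups. The genes most like Sst were Rwdd2a (0.883), Resp18 (0.880), Bace2 (0.875), Cdh22 (0.874) and Rbp4 (0.871), and with group means removed r was 0.973 for Rbp4, which averaged 7.92 ± 1.30 CPM in STET_S200, 6.22 ± 0.779 CPM in STET_S100, 7.51 ± 0.472 CPM in STET and 8.09 ± 2.05 CPM in Control. For the other 4 genes near Sst, r with group means removed was 0.878 to 0.923. These values are a ranking over libraries that share treatments, with no test.

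**Figure D5:**
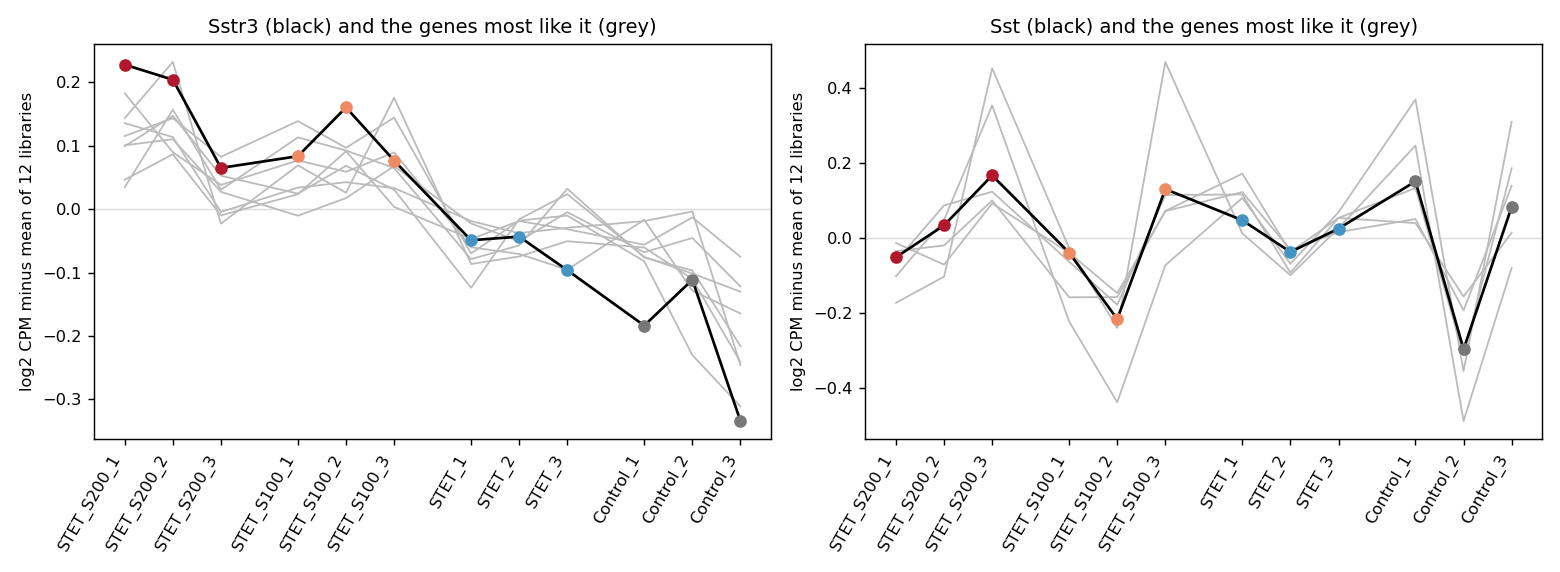
Log2 CPM, centred on the mean of the 12 libraries, of Sstr3 (left) and Sst (right) in black and of the 8 and 5 genes most like each in grey, by library from STET_S200 at the left to Control at the right, with lines that only join libraries. The grey lines, r from 0.871 to 0.914, step down with Sstr3 from the amygdala groups to Control, and Sst and its 5 genes are all low in Control 2 and STET_S100 2.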

How the data were processed

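Ventral CA1 of 12 pooled slice samples was measured by directional poly(A) RNA sequencing. The authors deposited raw read counts per Ensembl gene ID, which were unscaled whole numbers. Tools named in the submitters' processing notes were STAR 2.7.1a, Trimmomatic 0.39, HTSeq 0.11.2, limma and R 4.0.2. No source used here gives the genome build, annotation release or strand setting. Symbols, exon lengths and coding sequences came from GENCODE M21, which held 55144 of 55471 IDs (99.4%), and promoters from RefSeq.

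The main analysis fitted all 12 libraries with 1 coefficient per group in edgeR 4.0.16 (R 4.3.3), with TMM scaling and the robust quasi-likelihood F test. The filter filterByExpr (at least 10 counts in enough libraries and 15 in total) left 19492 genes. P-values were Benjamini-Hochberg adjusted over these within each of 7 comparisons, at a threshold of 0.05. The biological coefficient of variation was 8.25%. Totals ran from 36.3 to 52.8 M reads. Reads are not independent molecules, and p-values measure the spread between these pooled samples. CPM are per TMM-scaled library size. Steps were tested on simulated data. There were 25 alternatives, among them DESeq2 1.42.0, limma 3.58.1 (voom), other scalings and filters and leaving out each library. The genes and lists were chosen with earlier results of these data known. Named list genes are the 3 with the highest mean CPM, beside the exceptions stated, and 1 of them is not reported here.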

Additional observations from a re-analysis of the deposited data

How the results depend on the processing

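The choice of scaling, filter, tool, covariate or library turned no direction of Sstr3. Over 25 alternatives its log2 difference from Control ran from 0.31 to 0.42 in STET_S200, from 0.25 to 0.36 in STET_S100 and from 0.09 to 0.19 in STET. That of both amygdala groups against STET ran from 0.18 to 0.22. All these ranges use libraries that picked Sstr3 and are a description. None of Sst, Sstr1, Sstr2 and Sstr4 passed 0.05 in any of them, and small estimates of these genes changed sign in some: for Sst, STET_S200 against Control ran from -0.12 to 0.15. Depth limits Sstr5, with 5 to 14 reads in a library.

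The number of genes that passed was 0 in every comparison of the main analysis. With no filter on low counts it was 69, 42 and 16 in STET_S200, STET_S100 and STET against Control, 34 and 22 in STET_S200 and STET_S100 against STET, 98 in STET_S200 against STET_S100 and 29 in both amygdala groups against STET. With DESeq2 it was 4, 3, 1, 16, 1, 5 and 15 in that order, and with limma-voom 0 in each. Counts against Control are over all genes, and no call is read from them for Sstr3, which was picked on those contrasts. With compared groups alone it was 1 in STET_S100 against Control and 2 in both amygdala groups against STET. A Fabp4 term gave 1 in STET_S200 and 2 in STET against Control, 1 each in STET_S200 and STET_S100 against STET and 1 in both against STET, and the dentate score, chosen after seeing the data, gave 1 in STET_S200 against Control. The cause was not tested. Leaving out 1 library gave 0 to 2 in STET_S200 against Control (2 without STET_S200 3), 0 to 1 in STET_S100 against Control (1 without STET_S200 1), 0 to 1 in STET_S100 against STET (1 without Control 3), 0 to 8 in STET_S200 against STET_S100 (8 without STET_S100 3) and 0 to 2 in both amygdala groups against STET (2 without Control 1, 1 without Control 3).

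With the replicate number as a block, 0 genes passed in each comparison and the Sstr3 differences from Control were 0.38, 0.32 and 0.15 in STET_S200, STET_S100 and STET. Whether the numbers mark shared mice is not stated, and they were not taken to pair the samples, because not every same-numbered pair correlated above 0.1: the deviations from group means correlated at -0.285 to 0.33 in 18 such pairs (median 0.0535) and at -0.348 to 0.362 in the others (median -0.0425). As a hint from the data, with no test, 7 of 12 libraries correlated best with their own number. These correlations cannot settle whether the numbers mark shared mice. The groups do share mice, and the SEs, intervals and p-values of the main fit treat the libraries as unpaired.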
